A study of Mus musculus with 8 samples.

Results

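The expression of interleukin receptor genes was followed in hypoxic mouse dendritic cells that did or did not receive SCF, the stem cell factor that binds and activates the kinase receptor Kit. A gene was a member if its symbol began with Il, a number and r and if a probe set of the array carried that symbol alone. This gave 37 genes on 39 probe sets, out of 22180 genes with such a probe set. Each gene was represented by its probe set with the highest mean over the 8 arrays. The list holds receptor chains, accessory chains and Il1rn, which encodes a secreted antagonist of the interleukin 1 receptor. Il1rl1, Il2rg, Il11ra1 and Il11ra2, which code for further chains of these receptors, were not analysed here.

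The cells were CD11c-positive, purified on magnetic beads from wild-type C57BL/6 bone marrow of female mice after 7 days in culture with the growth factor GM-CSF at 20 ng/ml and 21% oxygen. Both groups were next held for 2 days at 2% oxygen, or about 14 mmHg, with the same GM-CSF, and for a final 6 hours either in medium alone or with SCF at 100 ng/ml. The work was run as 4 separate experiments named BC, D2, E and I, each giving 1 medium and 1 SCF culture from the same purified cells, so that 8 arrays form 4 pairs. For the age of the mice and the number of animals per experiment, nothing is given in the sources used here. The comparison asked how 6 hours of SCF changed gene expression in these cells.

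Interleukin receptors are built from a chain that binds the ligand and 1 or more chains that carry the signal. Members of the interleukin 1 family signal through the adaptor MyD88, while most other interleukin receptors use Janus kinases and STAT factors, and the interleukin 17 receptors use an adaptor of their own. Some members oppose signalling: Il1r2 encodes a decoy that binds interleukin 1 without passing on a signal, and Il13ra2 encodes a chain that binds interleukin 13 tightly. Dendritic cells are known both to make interleukins for T cells and to answer several of them.

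RefSeq promoter windows (assembly GRCm38.p6) were found for 30 of the 37 genes. The 250 bases upstream of the start are printed for 3 genes chosen after their values were seen. Il1r2 was the member that differed between experiments beyond the threshold, Il1rl2 lies near it on the same chromosome and had the same order of experiments, and Il3ra had the smallest p for SCF. The strand is plus for each, at chr1:40085843-40086092 for Il1r2, chr1:40324339-40324588 for Il1rl2 and chr14:14346245-14346494 for Il3ra. Capitals mark matches, on either strand, to TTCNNNGAA (the STAT site), TGANTCA (the AP-1 site), ACGTG or GCGTG (the cores of the hypoxia response element) and GAGGAA (a core of the PU.1 site).
Il1r2: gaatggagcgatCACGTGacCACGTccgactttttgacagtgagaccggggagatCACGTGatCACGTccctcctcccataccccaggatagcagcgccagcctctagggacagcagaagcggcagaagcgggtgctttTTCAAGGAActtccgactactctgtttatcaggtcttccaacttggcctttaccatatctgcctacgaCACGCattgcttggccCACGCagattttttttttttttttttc
Il1rl2: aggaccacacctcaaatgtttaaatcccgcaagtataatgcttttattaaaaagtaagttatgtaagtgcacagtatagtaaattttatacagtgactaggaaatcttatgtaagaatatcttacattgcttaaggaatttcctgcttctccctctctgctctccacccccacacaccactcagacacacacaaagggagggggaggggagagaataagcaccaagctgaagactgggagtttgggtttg
Il3ra: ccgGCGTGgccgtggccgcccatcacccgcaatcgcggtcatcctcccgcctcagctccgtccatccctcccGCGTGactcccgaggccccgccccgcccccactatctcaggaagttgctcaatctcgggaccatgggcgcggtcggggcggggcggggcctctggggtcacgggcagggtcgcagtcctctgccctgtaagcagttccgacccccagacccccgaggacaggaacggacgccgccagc
The window of Il1r2 held 6 matches to ACGTG, where the palindrome CACGTG counts once on each strand, 2 to GCGTG and 1 to TTCNNNGAA. Over all 32851 windows, 16.6% held ACGTG, 28.2% held GCGTG and 7.02% held TTCNNNGAA. That of Il1rl2 held none of the 5 motifs. That of Il3ra held 2 matches to GCGTG, in a sequence of 72.4% G and C. Over the receptor genes with a window, 5 of 30 held ACGTG, 12 held GCGTG, 5 held TTCNNNGAA, 7 held TGANTCA and 10 held GAGGAA. The last 2 were in 6.75% and 23.3% of all windows. A gene counted if any of its windows matched, and the 30 genes had 36 windows. The percentages count single windows, so these counts and percentages are not like for like. These are matches of letters, and binding was not measured.

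All levels below are log2 intensities of RMA-processed arrays. Levels of different probe sets are not compared with each other, since probes differ in how strongly they bind. A probe set was tested where its mean over the 8 arrays reached 4.05, the median over probe sets with a gene symbol, and 25 of the 37 receptor genes passed this filter. Among 12668 probe sets tested in all, none passed an adjusted p of 0.05 for SCF (0%), and 533 (4.21%) had an unadjusted p under 0.05 in limma with experiment as a block. Of the markers fixed for dendritic cells, 7 of 7 that were named lay above the filter, as did 5 of 5 macrophage markers and 3 of 9 mast cell and basophil markers, but 0 of 6 T and NK cell markers, 1 of 6 neutrophil markers (Ly6g), 1 of 4 eosinophil markers (Siglecf) and 1 of 4 B cell markers (Pax5). RNA came from whole cultures of the purified cells (purity given as 98%), in which fewer cells of a type and less RNA per cell cannot be told apart. The number of arrays limits the precision.

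**Figure D1:**
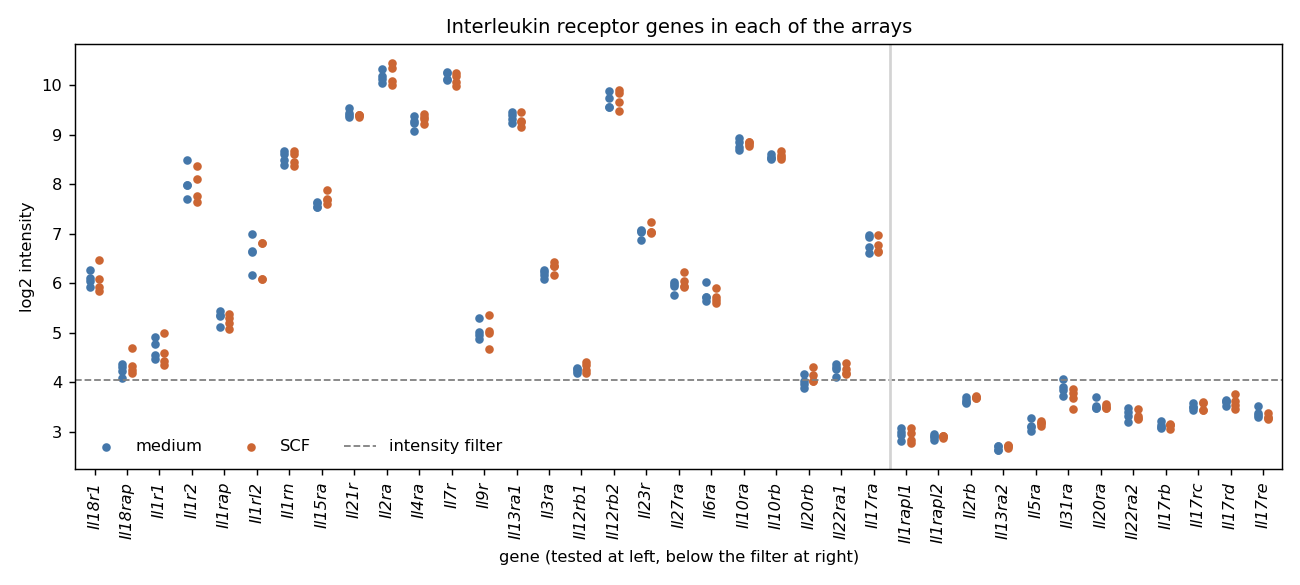
Log2 intensity of the 37 interleukin receptor genes in each of the 8 arrays, with 4 medium arrays (blue) and 4 SCF arrays (orange) per gene and the intensity filter of 4.05 as a dashed line. The 25 tested genes stand at the left and the 12 below the filter at the right, and for every gene the ranges of the medium and SCF points overlap.

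SCF left the interleukin receptor genes without a detectable change. Of the 25 tested genes 0 passed the adjusted threshold (0% of all probe sets passed), 12 were fitted above 0 (48%, beside 50.5% of all probe sets) and 13 below it, and 1 (4%) had an unadjusted p under 0.05 in limma. The 12 above 0 include Il20rb, whose mean reached the filter only through the SCF arrays. Fitted log2 changes of the 25 genes lay between −0.16 for Il1rl2 and 0.13 for Il3ra. Their median was −0.0097, beside 0.00077 over all probe sets tested. Every one of the 25 had a 95% interval inside 1.5-fold in both directions, as had 99.7% of all probe sets. The interval bounds of these genes reached at most from 0.748-fold to 1.22-fold.

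**Figure D2:**
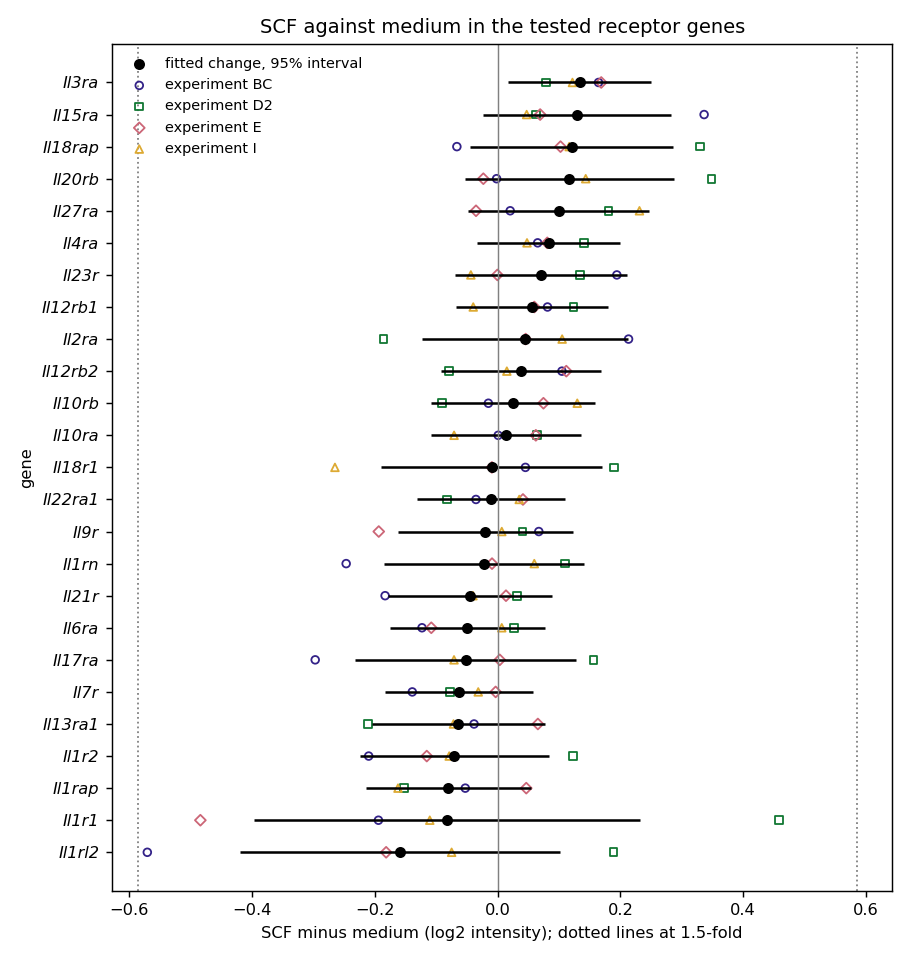
SCF minus medium in log2 intensity for the 25 tested receptor genes, with the fitted change and its 95% interval in black and the difference in each of the 4 experiments as open symbols. Intervals lie inside the dotted lines at 1.5-fold for all 25 genes, and Il3ra is the gene whose interval lies above 0.

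Il3ra, the chain that gives the interleukin 3 receptor its ligand specificity, had the smallest p of the list. In the order BC, D2, E and I, which is kept throughout, it measured 6.26, 6.08, 6.17 and 6.23 in medium and 6.43, 6.16, 6.34 and 6.35 with SCF. It was higher with SCF in 4 of 4 experiments, although the groups overlapped, since the D2 SCF array lay below 3 of the medium arrays. With SE 0.05 and a 95% interval of 0.02 to 0.25, the log2 change of 0.13 (unadjusted p = 0.0301, limma adjusted p = 0.945) did not pass. Leaving out 1 experiment at a time kept it between 0.12 and 0.15. Il5ra, the matching chain for interleukin 5 and known from eosinophils, lay below the filter in all 8 arrays, between 3.01 and 3.28.

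Among the receptors that share the common gamma chain, 6 of 7 genes were tested, 3 were fitted above 0 and 3 below, and 0 passed (0% of all probe sets). Il15ra, which presents interleukin 15 to other cells, measured 7.54, 7.63, 7.62 and 7.55 in medium and 7.88, 7.69, 7.69 and 7.59 with SCF. Its differences were 0.34 in BC and 0.05 to 0.07 in the other experiments, and its log2 change of 0.13 (SE 0.07, limma adjusted p = 0.945) was 0.06 without BC. Il4ra, the signalling chain for interleukins 4 and 13, measured 9.28, 9.07, 9.24 and 9.37 in medium and 9.35, 9.21, 9.32 and 9.41 with SCF. Both genes were higher with SCF in 4 of 4 experiments, but the Il4ra difference in BC was 0.00056 with the array medians equalized, and its log2 change was 0.08 (SE 0.05, limma adjusted p = 0.945).

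Il7r, which encodes the chain shared by the receptors of interleukin 7 and TSLP, went the other way. It measured 10.12, 10.27, 10.24 and 10.09 in medium and 9.98, 10.19, 10.23 and 10.06 with SCF, lower in 4 of 4 experiments but by only 0.0030 in E. The log2 change was −0.06 (SE 0.05, limma adjusted p = 0.945), or −0.04 without BC. Il21r, the interleukin 21 receptor chain, measured 9.53, 9.36, 9.39 and 9.43 in medium and 9.34, 9.39, 9.40 and 9.39 with SCF. In BC it differed by −0.18 and elsewhere by −0.04 to 0.03. Il2ra, the high-affinity interleukin 2 chain also called CD25, averaged 10.17 ± 0.13 over the medium arrays (SD, n = 4) and 10.22 ± 0.21 over the SCF arrays, with differences of 0.21 in BC and −0.19 in D2. Il9r, the interleukin 9 receptor chain, had a log2 change of −0.02 (SE 0.06, limma adjusted p = 0.988), and Il2rb, known from T and NK cells, stayed below the filter with a mean of 3.66. The same sign in all 4 experiments was found in 4 of the 25 tested receptor genes (16%), namely Il3ra, Il4ra, Il15ra and Il7r, beside 12.9% of all probe sets.

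Genes of the interleukin 1 family were mostly fitted below 0, in 5 of 6 tested receptor genes, but none passed and the experiments disagreed. Il1r1, the signalling receptor of interleukin 1, measured 4.77, 4.54, 4.91 and 4.46 in medium and 4.58, 4.997, 4.43 and 4.35 with SCF. It differed by 0.46 in D2 and by −0.48 in E, and the fit gave a log2 change of −0.08 with a 95% interval from −0.40 to 0.23 (SE 0.13, limma adjusted p = 0.968). The value without D2 was −0.26 and that without E was 0.05. Il1rl2, the receptor of interleukin 36, measured 6.65, 6.63, 7.00 and 6.16 in medium and 6.08, 6.81, 6.81 and 6.08 with SCF. Its BC pair differed by −0.57, and the log2 change of −0.16 (SE 0.11, limma adjusted p = 0.945) became −0.02 without BC.

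Il1rap, the accessory chain that several receptors of the interleukin 1 family share, measured 5.12, 5.44, 5.33 and 5.36 in medium and 5.07, 5.29, 5.37 and 5.20 with SCF. The groups overlapped, and the log2 change was −0.08 (SE 0.06, limma adjusted p = 0.945). The gene's other 2 probe sets, with means of 2.89 and 2.73, lay below the filter. Il18rap, the accessory chain for interleukin 18, measured 4.30, 4.37, 4.22 and 4.07 in medium and 4.24, 4.70, 4.32 and 4.19 with SCF, a log2 change of 0.12 (SE 0.07, limma adjusted p = 0.945), or 0.05 without D2. Il18r1, its binding chain, measured 6.05, 6.27, 5.93 and 6.10 in medium and 6.09, 6.46, 5.92 and 5.84 with SCF, with a difference of 0.19 in D2 and −0.26 in I. Both Il18 chains were thus at their highest in the SCF array of D2. The antagonist gene Il1rn measured 8.60, 8.49, 8.67 and 8.38 in medium and 8.36, 8.60, 8.66 and 8.44 with SCF, and its log2 change of −0.02 (SE 0.07, limma adjusted p = 0.989) turned to 0.05 without BC. Il1rapl1 and Il1rapl2, known mainly from neurons, lay below the filter.

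The chains for cytokines of the interleukin 6 and 12 families did not pass either, with 4 of 5 tested genes fitted above 0. Il27ra, the interleukin 27 receptor chain, measured 6.02, 5.76, 5.95 and 5.98 in medium and 6.04, 5.94, 5.91 and 6.21 with SCF, a log2 change of 0.10 (SE 0.06, limma adjusted p = 0.945), or 0.06 without I. Il6ra, which binds interleukin 6 before gp130 joins, measured 5.71, 5.63, 6.01 and 5.72 in medium and 5.59, 5.66, 5.91 and 5.73 with SCF, a log2 change of −0.05 (SE 0.05, limma adjusted p = 0.957), or −0.02 without BC. Il12rb1, the chain common to the interleukin 12 and 23 receptors, averaged 4.24 ± 0.05 over the medium arrays (SD, n = 4) and 4.29 ± 0.11 over the SCF arrays. Its partners Il12rb2 and Il23r had log2 changes of 0.04 (SE 0.06) and 0.07 (SE 0.06), which were 0.02 and 0.03 without BC. Il31ra, a receptor chain of the gp130 family, lay below the filter, with means of 3.88 ± 0.14 in medium and 3.69 ± 0.17 with SCF. With no filter it reached an unadjusted p under 0.05 for a lower level with SCF, as did 856 probe sets for either direction, and none of the 25335 passed in limma after adjustment.

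The remaining members covered the interleukin 10, 13 and 17 receptors. Il10ra, the binding chain for interleukin 10, measured 8.85, 8.70, 8.75 and 8.92 in medium and 8.85, 8.76, 8.82 and 8.85 with SCF. Its partner Il10rb, which also serves interleukin 22 and lambda interferons, measured 8.55, 8.60, 8.51 and 8.53 in medium and 8.54, 8.51, 8.59 and 8.66 with SCF. Both pairs of groups overlapped, with log2 changes of 0.01 (SE 0.05, limma adjusted p = 0.989) and 0.02 (SE 0.06, limma adjusted p = 0.979). Il20rb, a chain for interleukins 19, 20 and 24, lay at the filter, at 4.02, 3.95, 4.16 and 3.88 in medium and 4.02, 4.30, 4.14 and 4.03 with SCF. Its log2 change of 0.12 (SE 0.07, limma adjusted p = 0.945) was 0.04 without D2. Il22ra1, which gives the interleukin 22 receptor its specificity and is known from epithelia, averaged 4.26 ± 0.11 over the medium arrays (SD, n = 4) and 4.25 ± 0.11 over the SCF arrays.

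Il13ra1, which pairs with Il4ra, measured 9.31, 9.45, 9.39 and 9.23 in medium and 9.28, 9.24, 9.45 and 9.16 with SCF, a log2 change of −0.06 (SE 0.06, limma adjusted p = 0.945), or −0.01 without D2. The chain gene Il13ra2 was below the filter, at 2.63 to 2.73 over the 8 arrays. Il17ra, the chain common to the interleukin 17 receptors, measured 6.92, 6.61, 6.96 and 6.72 in medium and 6.63, 6.76, 6.97 and 6.65 with SCF, a log2 change of −0.05 (SE 0.08, limma adjusted p = 0.964). Without BC the change was 0.03, and without D2 it was −0.12. It was the single member of its family above the filter: Il17rb, Il17rc, Il17rd and Il17re had means between 3.12 and 3.59. Il20ra and Il22ra2, a soluble chain that binds interleukin 22, were also below it. Over the 12 genes below the filter, means lay between 2.69 and 3.79, and 1 of their array values, in Il31ra, reached the filter.

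Differences of the receptor genes between the 4 experiments were read next. They were tested by limma's moderated F test of the experiment terms in the same fit. The test compares these 4 cell preparations with the spread left within them. Il1r2 passed, which is 1 of 25 receptor genes (4%), beside 424 of 12668 probe sets (3.35%), so the share of receptor genes called was near the background. At an unadjusted p under 0.05 there were 10 of 25 receptor genes (40%), beside 24.2% of all probe sets. The range of the experiment means had a median of 0.25 over the 25 genes, beside 0.20 over all probe sets. In 19 of the 25 (76%) it exceeded the gene's largest difference within a pair, as it did in 52.7% of all probe sets. None of these shares was tested against the background.

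**Figure D3:**
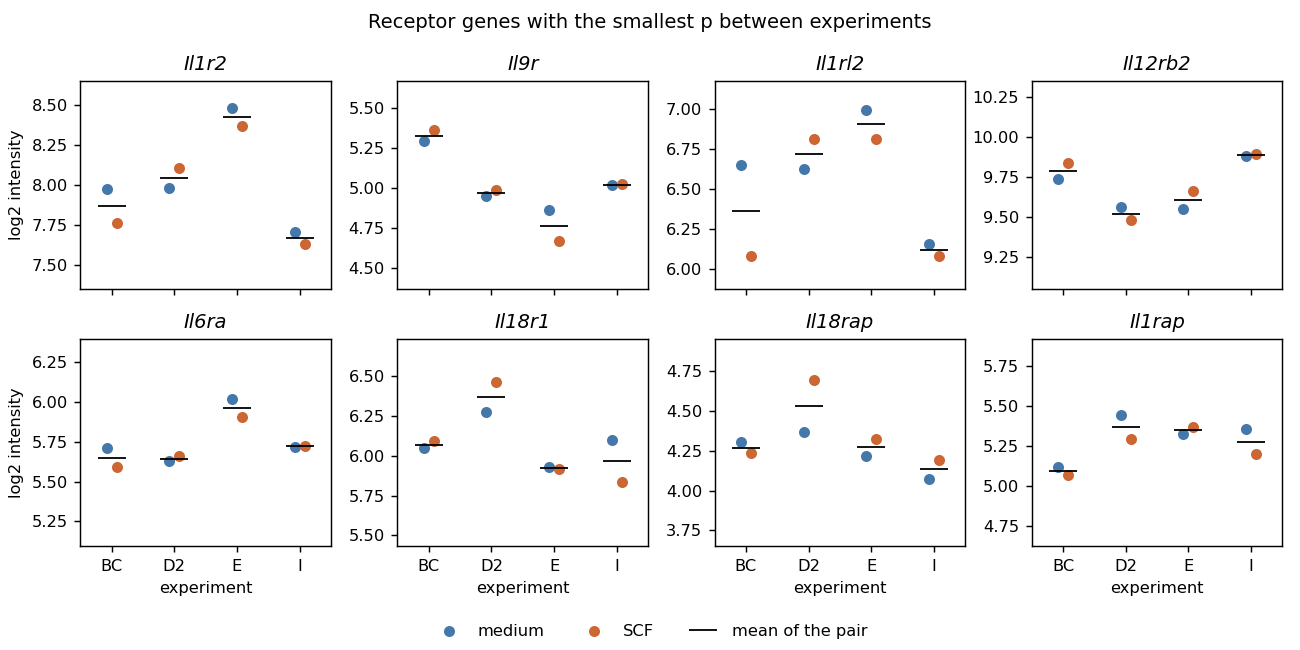
Log2 intensity by experiment for the 8 receptor genes with the smallest p of the experiment test, with the medium array in blue, the SCF array in orange, the mean of the pair as a bar, and axes that all span the same range of log2 units. In Il1r2 both arrays of E lie above all others and both of I below, which is the pattern of the single gene that passed.

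Il1r2, the decoy receptor for interleukin 1, measured 7.97, 7.98, 8.48 and 7.71 in medium and 7.76, 8.11, 8.37 and 7.63 with SCF. Both E arrays stood above the other 6 and both I arrays below them, and the means of E and I differed 1.69-fold (limma F test, adjusted p = 0.0282). By contrast its log2 change with SCF was −0.07 (SE 0.07, limma adjusted p = 0.945), or −0.02 without BC. The call between experiments was lost without E (adjusted p = 0.174) and without I (0.0850). It was also lost when 1 array was left out, at adjusted p from 0.0515 to 0.130, for 7 of the 8 arrays, all but the BC medium array (0.0467). Where 1 array is left out, its partner adds nothing to the estimate of the spread.

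The sum of the macrophage markers had the same order of experiments as Il1r2 in its pair means. Their summed linear intensity over 5 of 5 genes was 1581 in E, 1294 in D2, 1246 in BC and 1137 in I as pair means. In the medium arrays alone the sum was larger in BC (1360) than in D2 (1255), while Il1r2 measured 7.97 and 7.98. The sums ranged from 1164 to 1590 in medium and from 1111 to 1572 with SCF. Of these markers Cd14 and Fcgr1 passed the same F test (limma adjusted p = 0.0124 and 0.0360), while Adgre1, Mertk and Csf1r did not. Brighter markers weigh more in such a sum. The dendritic cell markers summed to 5475 in E, 5278 in D2, 5218 in I and 5047 in BC, and none of the 7 passed. For SCF, 5 of 5 macrophage markers were fitted below 0, 1 of them at an unadjusted p under 0.05 in limma. Of the dendritic cell markers 6 of 7 were fitted above 0, and 0 of either list passed after adjustment. The part of macrophage-type transcripts in the Il1r2 difference, or in the SCF changes of the receptor genes, was not tested.

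Il1rl2, Il13ra1, Il1rn and Il20rb had the same order of experiments as Il1r2, and none of them passed the F test. How many of all probe sets had this order was not counted, so it cannot be called particular to these genes. Il1rl2 had pair means of 6.91 in E, 6.72 in D2, 6.36 in BC and 6.12 in I. That is a 1.72-fold range, and the gene missed the threshold (limma F test, adjusted p = 0.0805), with its 2 BC arrays 0.57 apart. It passed without BC (adjusted p = 0.0476) and with an intensity trend in the variance (adjusted p = 0.0184). Il6ra was also highest in E, where both arrays stood above the other 6, at a pair mean of 5.96 against 5.65 in BC, 5.64 in D2 and 5.72 in I (adjusted p = 0.109). The antagonist gene Il1rn ranged over 0.25 (adjusted p = 0.351), Il13ra1 over 0.23 (adjusted p = 0.334) and Il20rb over 0.20 (adjusted p = 0.467).

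Il9r stood highest in BC and lowest in E. It measured 5.29, 4.95, 4.86 and 5.02 in medium and 5.36, 4.99, 4.67 and 5.03 with SCF, and both BC arrays lay above and both E arrays below all others. The 1.48-fold range missed the threshold (limma F test, adjusted p = 0.0521), and 4 of the processing alternatives put it below 0.05. The mast cell and basophil markers summed to 240.2 in BC, 231.9 in I, 204.6 in E and 180.1 in D2 over 9 genes, with sums of 183 to 243 in medium and 177 to 238 with SCF. Of these, Kit and Cpa3 passed the F test (adjusted p = 0.0412 and 0.0333), while Fcer1a, Ms4a2, Mcpt4, Mcpt8, Tpsb2 and Hdc were below the filter. The order of the sums was not that of Il9r: the sum was lowest in D2 and Il9r in E. The part of these markers in the Il9r values was not tested.

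Il12rb2, the signalling chain of the interleukin 12 receptor, was highest in I. It measured 9.74, 9.56, 9.55 and 9.88 in medium and 9.84, 9.48, 9.66 and 9.90 with SCF, with both I arrays above the other 6 (limma F test, adjusted p = 0.0904). With an intensity trend in the variance the same test gave an adjusted p of 0.00771. Il4ra shared this order of experiments (I, BC, E, D2), with both I arrays highest and both D2 arrays lowest over a range of 0.25 (adjusted p = 0.200). Il10ra and Il27ra had the same order, over ranges of 0.16 and 0.25 (adjusted p = 0.439 and 0.281). The share of all probe sets with this order was not counted either. The chains of the interleukin 18 receptor, Il18r1 and Il18rap, were highest in D2, with both D2 arrays above the other 6 in each gene (adjusted p = 0.125 and 0.153). Il1rap was lowest in BC (adjusted p = 0.182). No experiment was the highest for most genes, with E highest for 8 of the 25, I for 7, and BC and D2 for 5 each. Over all probe sets tested, BC was highest for 31.7%, E for 24.4%, D2 for 24.2% and I for 19.7%.

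Both arrays of 1 experiment stood above the other 6 in 12 of the 25 genes (48%, beside 29.8% of all probe sets). This experiment was E in 5 genes, I in 4, D2 in 2 and BC in 1. Both arrays of 1 experiment stood below the other 6 in 9 genes (36%, beside 27% of all probe sets). At the other end, Il10rb and Il21r hardly varied, with pair means within 0.05 and 0.06 of each other across experiments (limma F test, adjusted p = 0.952 and 0.940).

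**Figure D4:**
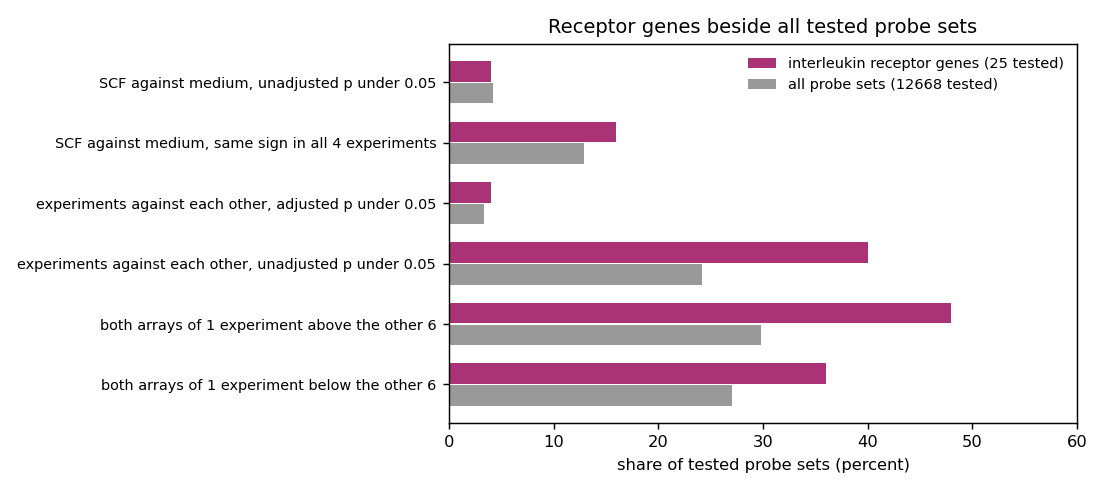
Share of tested probe sets, in percent, that met each of 6 criteria, for the 25 tested interleukin receptor genes and for all 12668 probe sets tested. The shares for an unadjusted p with SCF are 4% and 4.21%, and the shares for an adjusted p between experiments are 4% and 3.35%.

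Several members are neighbours in the RefSeq gene order. Il1r2, Il1r1 and Il1rl2 follow each other on chromosome 1 and are separated from Il18r1 and Il18rap by 1 protein-coding gene, Il1rl1. All 5 were above the filter, but their order of experiments differed: Il1r2 and Il1rl2 were highest in E, while Il18r1 and Il18rap were highest in D2. Il1r1 had its highest pair mean in D2 only through the SCF array, at 4.997 (limma F test, adjusted p = 0.529). Its medium array of D2, at 4.54, lay below those of BC (4.77) and E (4.91). Il4ra and Il21r on chromosome 7 are adjacent, and experiments spread over 0.25 in the first and 0.06 in the second. Il12rb2 with Il23r and Il2ra with Il15ra are adjacent pairs above the filter, whereas Il17re with Il17rc and Il20ra with Il22ra2 are adjacent pairs below it.

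Genes that work with these receptors were read in the same fit. Of 14 shared and partner chains outside the symbol rule 12 were tested, with 5 fitted above 0 and 7 below, and 0 passed for SCF or between experiments. Those with the smallest p for SCF were Sigirr, an inhibitory member of the interleukin 1 receptor family, at a log2 change of 0.10 (SE 0.06), Ifngr1 at −0.06 (SE 0.06) and Ifnlr1 at 0.06 (SE 0.06). All 9 JAK and STAT genes named were tested and 8 lay above 0, with 0 passing in limma. Tyk2, the kinase of the Il12rb1, Il10rb and Il13ra1 chains, was at 0.12 (SE 0.05, unadjusted p = 0.0495) and higher in 4 of 4 experiments, followed by Stat4 and Stat2 at 0.06 and 0.05. Of 15 MyD88 and interleukin 17 adaptor genes 6 lay above 0 and 9 below, led by Irak3 (−0.08), Myd88 (−0.08) and Ikbkg (−0.09), and of 14 feedback genes 7 lay on each side, led by Socs5 (−0.08), Cish (0.07) and Socs7 (0.07), with 0 passing.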

How the data were processed

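Biotin-labelled RNA of 8 cultures was read on 1-colour Affymetrix arrays, 1 per culture. For each array the authors deposited an RMA intensity per probe set (RMA per the submitters' processing notes, its version not stated). These intensities were linear, judged by their values, and without a detection call, so signal over background is unknown. They were taken to log2 with no further normalization and no pseudocount. Of 41345 probe sets, 23521 had 1 symbol in the platform annotation, 1814 several and 16010 none. Entrez numbers of all 37 receptor genes were found in RefSeq, with 0 symbols that differed.

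Probe sets with a symbol and a mean log2 intensity of at least 4.05 (16.6 linear) were fitted in limma 3.58.1 (R 4.3.3) with lmFit and eBayes, comparing SCF with medium by a two-sided test in which experiment was a fixed block. Adjustment was by Benjamini-Hochberg over all 12668 probe sets. The design text pairs the arrays of an experiment, which correlated at 0.46 (BC), 0.41 (D2), 0.42 (E) and 0.36 (I) after removal of group means. No 2 arrays were identical. The fits were tested on simulated data. The SCF changes planted there were larger than any fitted here for a receptor gene, so changes this small were not covered. Values in all arrays are given for the 6 smallest p in each direction with SCF, the 8 smallest p between experiments and a fixed list of receptors, and from each neighbouring list the 3 genes with the smallest p for SCF are named. The members and lists were chosen with earlier results of these data known.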

Additional observations from a re-analysis of the deposited data

Results flagged for a closer look

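In 2 of 74 groups of 4 arrays (37 genes in medium and with SCF), 1 array stood far from the other 3, and chance gives about 1 in 20 such groups. Il21r was low in the SCF array of BC, at 9.34 against 9.39 to 9.40 in the other SCF arrays. Il23r was high in the same array, at 7.24 against 7.00 to 7.03. Both gaps are small in absolute terms, and neither gene passed for SCF in limma.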

How the results depend on the processing

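No receptor gene was called for SCF under any of the 12 alternatives run, and the median change of the list lay between −0.029 (array medians equalized) and 0.016 (without BC). In the fit with no replicate block 0 probe sets were called and 125 had an unadjusted p under 0.05, and with experiment as a random replicate block 0 and 429. With the array medians equalized the median over all probe sets went from 0.00077 to −0.018, and Il10ra turned to −0.0051. Between experiments, the probe sets called were 194 with no intensity filter, 762 with a 60th percentile filter and 1527 with an intensity trend in the variance, and 35 to 177 when 1 experiment or, in an alternative added after seeing the data, 1 array was left out. The receptor genes called were Il1r2 and Il9r, 2 of 20 with the 60th percentile filter (7.52% of all probe sets), 2 of 25 with repeated quantile normalization (401 probe sets, 3.17%) and 2 of 24 with the mean of a gene's probe sets (481 genes, 4.28%). With the trend 7 of 25 were called (12.1% of all probe sets), namely Il1r2, Il9r, Il1rl2, Il12rb2, Il2ra, Il4ra and Il7r. With 1 experiment or array left out 0 to 2 were called. Il9r stood at an adjusted p of 0.0313, 0.0480, 0.0418 and 0.0314 in these 4 settings. Leaving out 1 experiment moved the SCF change of 23 of 25 genes by over 1.5 times or turned it, all but Il3ra and Il4ra. The ranges of those that turned were −0.0024 to 0.042 for Il10ra, −0.0100 to 0.063 for Il10rb, −0.12 to 0.030 for Il17ra, −0.076 to 0.075 for Il18r1, −0.26 to 0.051 for Il1r1, −0.065 to 0.054 for Il1rn, −0.070 to 0.0018 for Il21r, −0.027 to 0.014 for Il22ra1, −0.011 to 0.12 for Il2ra and −0.048 to 0.038 for Il9r. The causes were not tested, and the same count was not made over all probe sets. Without regard to sign, the changes of the 25 genes had a median of 0.062, beside a median SE of 0.060. Il1rap fell below the filter as a mean of its probe sets.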

Other observations

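The ligands of these receptors were read beside them. Of 34 named interleukin genes 11 were above the intensity filter, 8 fitted above 0 and 3 below for SCF, and 0 passed in limma. Il1a, an agonist of the interleukin 1 receptor, had the smallest p for SCF (log2 change −0.25, SE 0.10, unadjusted p = 0.0354) and was highest in E, where the pair averaged 5.20 against 4.40 (BC), 4.595 (D2) and 4.58 (I) (limma F test between experiments, adjusted p = 0.0596). Il33, a ligand that signals through Il1rap, passed the F test (adjusted p = 0.0124), with pair means of 5.71 in D2, 5.45 in E, 5.07 in BC and 4.74 in I, while its log2 change with SCF was −0.09 (SE 0.06). Il17d had a log2 change of 0.14 (SE 0.10). Il1b, Il10, Il23a and the T cell cytokine genes Il2, Il4, Il17a and Il22 lay below the filter by their means. Il1b, with a mean of 3.94, was above it in both E arrays, at 4.17 in medium and 4.27 with SCF.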
